A study of Mus musculus with 6 samples.

Results

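The genes described here are 8 of the 55401 genes in the deposited table: Selenbp1 and its copy Selenbp2, the sulfide oxidation genes Ethe1, Tst and Suox, and Mpst, Cbs and Cth, whose enzymes release hydrogen sulfide. They were measured in bEnd.3 cells, a mouse endothelial line labelled wild type. Mitochondria were taken from MLO-Y4, a mouse line with features of osteocytes, and added in 100 µl of culture medium, while control cells were given as much medium without them. RNA was sequenced after 24 h from 3 libraries of each group, called mitochondria and control here. Whether the 3 were separate cultures is not stated, so every p-value measures only the spread between these libraries, which may be technical. The endothelial label was only partly matched by its markers. Flt1, Eng, Cd34 and Tie1 passed the filter described below, but the defining markers Pecam1 (at most 1.44 CPM in any library, counts scaled to the TMM-adjusted total of the tested genes) and Cdh5 (at most 0.831 CPM) were near 0 and Cldn5 was at 0 in all libraries. Selenbp1 was chosen from this same comparison, with its value known, and its values are therefore a description and not evidence of a difference. The other 7 were added for their roles, with results of this comparison already known.

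Hydrogen sulfide is a gas that cells make from sulfur amino acids. The enzymes of Cbs and Cth form it in the cytosol from homocysteine and cysteine, and that of Mpst forms it by way of 3-mercaptopyruvate, while SELENBP1 is known in humans as a methanethiol oxidase that releases it from methanethiol. Mitochondria remove it: the quinone reductase encoded by Sqor passes its electrons to ubiquinone, the persulfide dioxygenase of Ethe1 turns the persulfide into sulfite, the rhodanese of Tst makes thiosulfate, and the molybdenum enzyme of Suox oxidises sulfite to sulfate. In blood vessels hydrogen sulfide is known as a signal that relaxes smooth muscle, and Cth is its best known source in endothelium.

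How far reads of Selenbp1 can be told from reads of Selenbp2 was examined in the GENCODE M21 transcripts of GRCm38, the build the submitters name. Both genes lie on the plus strand of chromosome 3, Selenbp1 (ENSMUSG00000068874) at 94933056 to 94944758 and Selenbp2 (ENSMUSG00000068877) at 94693556 to 94704413, and both main transcripts have 12 exons. Their coding sequences are each 1416 bases long, align without a gap and differ at 18 bases, an identity of 98.7%. A stretch of 90 coding bases that holds 4 of the 18 differences, positions 360 to 449 counted from the start codon, is shown because a read must cross bases like these to be assigned to 1 copy. It is spliced, from chr3:94937393-94938043 in Selenbp1 and chr3:94697490-94698131 in Selenbp2, and capitals mark the bases that differ.
Selenbp1: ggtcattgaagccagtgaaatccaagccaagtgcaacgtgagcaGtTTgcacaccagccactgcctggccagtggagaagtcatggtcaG
Selenbp2: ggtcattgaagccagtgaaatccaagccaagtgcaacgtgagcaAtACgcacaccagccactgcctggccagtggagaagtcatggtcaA

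Elsewhere the copies run identical for up to 193 coding bases, positions 843 to 1035. That stretch, spliced from chr3:94940226-94942737 in Selenbp1, is shown because no read inside it can name its gene.
Shared stretch: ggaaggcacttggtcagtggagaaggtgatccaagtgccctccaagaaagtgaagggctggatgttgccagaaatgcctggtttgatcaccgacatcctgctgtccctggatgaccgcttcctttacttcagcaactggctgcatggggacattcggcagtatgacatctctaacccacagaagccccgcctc

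The share of the Selenbp1 transcript that is ambiguous falls with the length read. Of all 50-base windows of the transcript, 52.3% occurred exactly in a Selenbp2 transcript, and of 75-base, 100-base and 150-base windows 34.7%, 21.3% and 6.97% did. Selenbp2 was the only other annotated gene that shared a window of Selenbp1 at any of these 4 lengths. The read length is not given in the sources used here, so it cannot be said which of these shares applies. The other members have no such copy. Suox, Tst, Mpst and Cth shared 0 windows of 50 bases with another gene, Cbs shared 1.54% and Ethe1 3.48%. Those of Ethe1 are shared with Zfp575, whose gene overlaps the start of Ethe1 by 99 bases on the other strand.

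Levels are given as FPKM, the deposited read density scaled to transcript length and library size, where genes are compared with each other, and as CPM where libraries are compared. Over all 6 libraries Selenbp1 had the highest mean level of the 8 genes, at 25.1 ± 4.40 FPKM, followed by Ethe1 at 19.3 ± 1.02, Mpst at 10.3 ± 1.39, Cth at 4.82 ± 0.753, Tst at 3.87 ± 0.425 and Suox at 2.46 ± 0.35 FPKM (SD, n = 6). Selenbp2 at 0.714 ± 0.478 FPKM and Cbs at 0.263 ± 0.0657 FPKM came last (SD, n = 6). The 6-library ranges of Cth and Tst, and of Selenbp2 and Cbs, overlapped, so the order within these neighbours is not set beyond their spread. Those of Selenbp1 and Ethe1 overlapped only when the groups were pooled: Selenbp1 was above Ethe1 in all 6 libraries, with 28.7 to 29.3 FPKM against 17.7 to 20.9 FPKM with mitochondria and 20.5 to 22.3 FPKM against 19.1 to 19.6 FPKM in control. The other neighbours did not overlap. Of the genes that make hydrogen sulfide, Mpst and Cth were thus both expressed above Cbs, and the highest library of Cbs reached 0.324 FPKM.

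**Figure D1:**
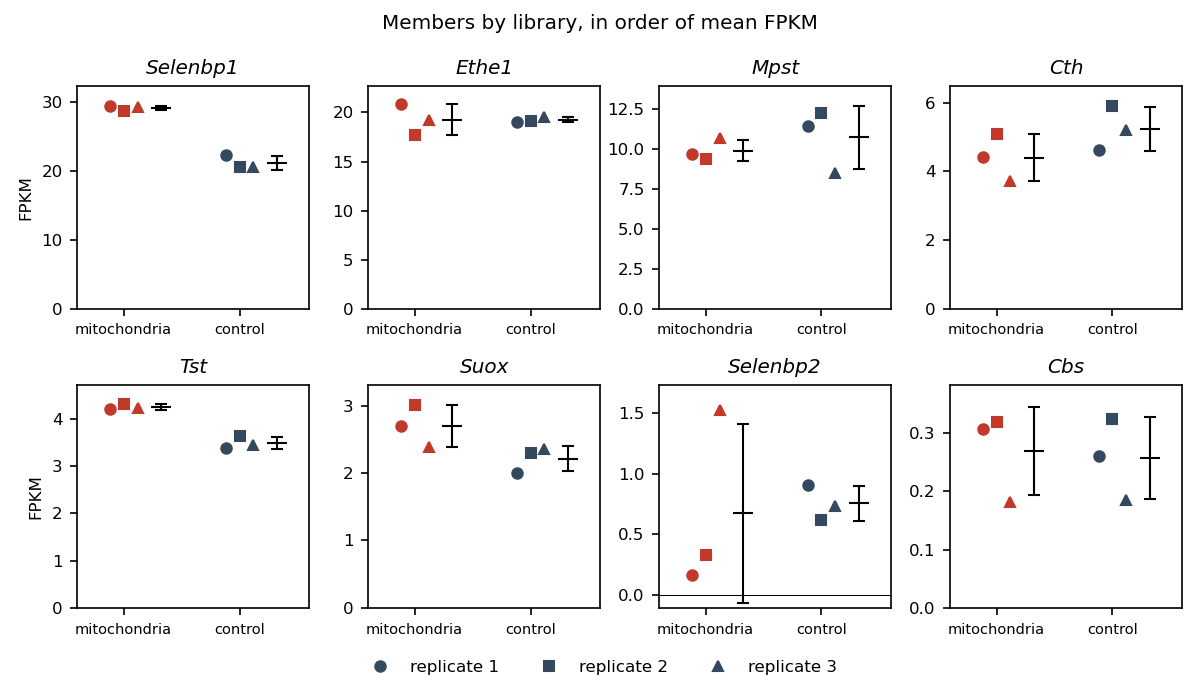
FPKM (linear axis) of each of the 8 genes in the 3 mitochondria libraries (red) and the 3 control libraries (dark blue), with marker shapes for the replicate number and black bars for the group mean ± SD. Selenbp1, Tst and Suox sit higher in every mitochondria library than in any control library, Selenbp2 spans 0.165 to 1.52 FPKM within the mitochondria group (its SD bar passes below 0), and the groups of Ethe1, Mpst, Cth and Cbs overlap.

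Of the 8 genes, 6 passed the filter of a mean of at least 1 FPKM and were tested, and Selenbp2 and Cbs did not pass it. By edgeR's quasi-likelihood test 0 of the 6 were called at an adjusted p under 0.05, against 0.164% of the 12774 genes tested (21 genes), and 2 of the 6, Tst and the chosen Selenbp1, had an unadjusted p under 0.05, against 13.0% of all genes tested. With the replicate number as a block the test called 0 genes in all, so no member was called. DESeq2 called 1 of the 6, Selenbp1, against 2.79% of all genes. Selenbp1, Tst and Suox were higher in every mitochondria library than in any control library, 3 of 6 members against 10.8% of all tested genes that were separated in this direction, and 0 of 6 were separated in the other, against 10.6% of all. Because the list was drawn up around Selenbp1, nothing is read from that count. The median log2 fold change of the 6 was 0.13, and that of all tested genes was -0.0016. In bulk RNA, more RNA per cell and more cells that carry it cannot be told apart, and RNA brought in with the organelles, also from mouse, cannot be told apart from that of bEnd.3.

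Selenbp1 had 75.3, 73.5 and 74.3 CPM in the mitochondria libraries, against 57.7, 53.1 and 52.8 CPM in the control libraries. The mitochondria libraries differed little from each other, with an SD of 0.887 CPM around a mean of 74.4, while the control libraries had an SD of 2.73 CPM around a mean of 54.5 (n = 3 each). In FPKM, the means were 29.0 ± 0.343 with mitochondria and 21.1 ± 1.03 in control (SD, n = 3 each). The fitted log2 fold change was 0.45 ± 0.053 (SE), a fold of 1.36. The log2 ratios within same-numbered libraries were 0.38, 0.47 and 0.49. As the groups did not overlap, any matching of the libraries gives ratios above 1. The edgeR adjusted p was 0.0546, just above the threshold, and it was 0.186 with the replicate block. By DESeq2 the adjusted p was 8.66e-09. As Selenbp1 was chosen with its value in this comparison known, these p-values are not evidence of a difference. Leaving out any single library kept the log2 fold change between 0.43 and 0.49.

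Selenbp2, known in mouse liver as an acetaminophen-binding protein, had 30, 60 and 254 counts in the mitochondria libraries, against 168, 117 and 124 in the control libraries. In CPM these were 0.429, 0.869 and 3.89 with mitochondria and 2.37, 1.61 and 1.91 in control. Mitochondria replicates 1 and 2 lay below all control libraries and replicate 3 lay above all of them, so the groups overlapped, with means of 1.73 ± 1.88 CPM with mitochondria and 1.96 ± 0.38 CPM in control (SD, n = 3 each). The ratio of the means was 0.88, and 1 library set it: leaving out mitochondria replicate 3 gave 0.33, and leaving out mitochondria replicate 1 or 2 gave 1.21 or 1.10. When no filter on low values was used, edgeR gave Selenbp2 a log2 fold change of -0.19 ± 0.74 (SE) and an adjusted p of 0.96.

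The effect of read splitting between the copies was measured by adding their counts. The sum was 75.7, 74.4 and 78.2 CPM with mitochondria, against 60.04, 54.7 and 54.7 CPM in control. Selenbp2 made up 0.566%, 1.17% and 4.97% of the sum in the mitochondria libraries and 3.94%, 2.95% and 3.5% in the control libraries. In the fit, the summed gene had a log2 fold change of 0.43, close to that of Selenbp1 alone, with an edgeR adjusted p of 0.0737 (0.189 with the replicate block). Nearly all of the sum was Selenbp1, chosen with its value known, so these p-values are not evidence of a difference. The lowest mitochondria library of Selenbp1 alone, 73.5 CPM, was above the highest control library of the sum, 60.04 CPM. Selenbp1 was 19.8 CPM higher with mitochondria on average, and the highest Selenbp2 value in any library was 3.89 CPM, so giving every Selenbp2 count of the control libraries to Selenbp1 would leave the groups separated. Reads of Selenbp2 assigned to Selenbp1 cannot be counted in this way, so the separation holds for the pair, and the low level of Selenbp2 itself stays uncertain.

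**Figure D2:**
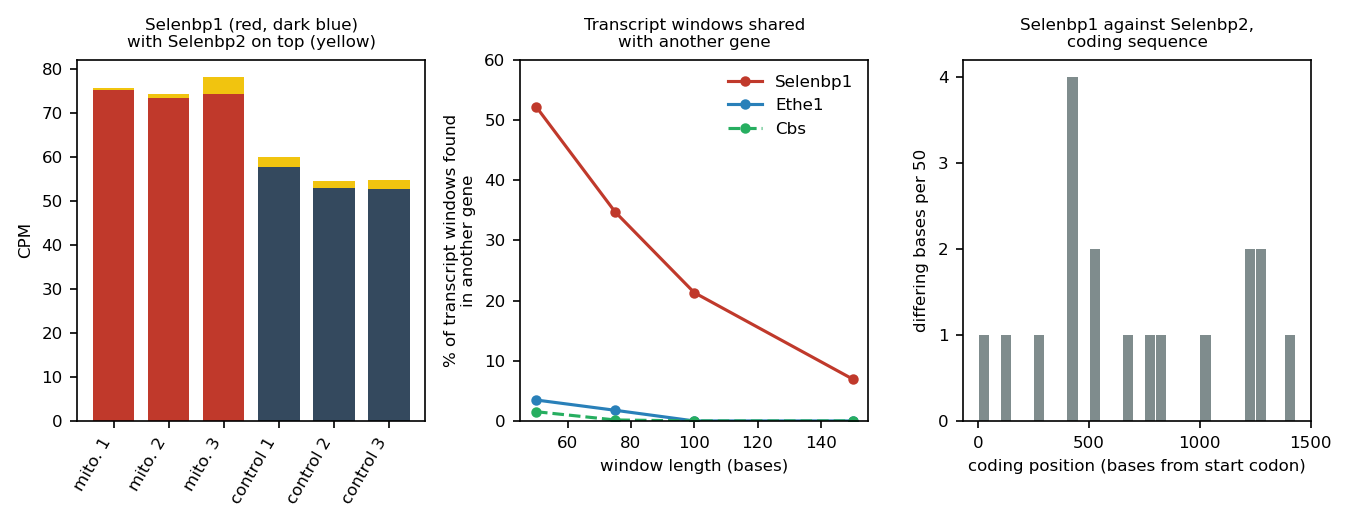
Left, CPM of Selenbp1 (red with mitochondria, dark blue in control) with that of Selenbp2 stacked on top in yellow for each library; centre, the percentage of windows of a transcript that occur exactly in another annotated gene, against window length in bases; right, the number of differing bases per 50 coding bases between Selenbp1 and Selenbp2. The sums reach 74.4 to 78.2 CPM with mitochondria and 54.7 to 60.04 CPM in control, and the 18 differences are spread thinly, with at most 4 in any plotted bin of 50 bases.

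Among the oxidation genes, Tst and Suox had higher levels in all 3 mitochondria libraries but did not pass the test, and Ethe1 did not differ beyond its spread. Tst (ENSMUSG00000044986), on the minus strand of chromosome 15 (78399556 to 78405907), had 15.0, 15.4 and 15.0 CPM with mitochondria, against 12.2, 13.1 and 12.4 CPM in control. Its libraries lay close together within each group, at 15.1 ± 0.224 CPM with mitochondria and 12.6 ± 0.493 CPM in control (SD, n = 3 each). The log2 fold change was 0.27 ± 0.074 (SE), with an edgeR adjusted p of 0.268 and a DESeq2 adjusted p of 0.0859.

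Suox (ENSMUSG00000049858), on the minus strand of chromosome 10 (128669894 to 128674073), had 7.6, 8.47 and 6.71 CPM with mitochondria, against 5.68, 6.54 and 6.65 CPM in control. The groups were separated by only the gap between mitochondria replicate 3 and control replicate 3. The log2 fold change of 0.27 ± 0.14 (SE) equalled that of Tst with a wider error, and the edgeR adjusted p was 0.455.

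Ethe1 (ENSMUSG00000064254), whose loss in humans causes ethylmalonic encephalopathy, lies on the plus strand of chromosome 7 (24587543 to 24608925). It had 34.9, 29.6 and 32.1 CPM with mitochondria, against 32.2, 32.3 and 32.9 CPM in control. The control values lay inside the range of the mitochondria values, and the log2 fold change was -0.012 ± 0.076 (SE; edgeR adjusted p = 0.959).

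Sqor, the entry enzyme of the same route and not a member, had a higher level per length than any member, at 35.6 ± 1.47 FPKM with mitochondria and 30.8 ± 1.83 FPKM in control (SD, n = 3 each). In CPM it had 159.6, 171.7 and 159.8 with mitochondria, against 150.5, 133.8 and 144.3 in control. Its groups did not overlap, and with a log2 fold change of 0.20 ± 0.059 (SE) it did not pass, at an edgeR adjusted p of 0.292.

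Of the 3 genes that make hydrogen sulfide from amino acids, none was called. Mpst (ENSMUSG00000071711), on the plus strand of chromosome 15 (78406416 to 78414006), had 23.4, 22.6 and 25.6 CPM with mitochondria, against 27.8, 29.8 and 20.6 CPM in control. Control replicate 3 was the lowest of all 6 libraries, and control replicates 1 and 2 were the highest. The log2 fold change was -0.13 ± 0.15 (SE; edgeR adjusted p = 0.751). Mpst and Tst encode related sulfurtransferases and start 508 bases apart in opposite directions. In same-numbered replicates 1 and 2 Tst was higher with mitochondria and Mpst lower. In replicate 3 both were higher, with log2 ratios of 0.27 for Tst and 0.31 for Mpst. The labels do not state that the numbers pair the libraries, and a link between the 2 genes was not tested.

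Cth (ENSMUSG00000028179), cystathionine gamma-lyase, lies on the minus strand of chromosome 3 (157894248 to 157925077). It had 13.9, 16.1 and 11.6 CPM with mitochondria, against 14.6, 18.7 and 16.5 CPM in control. The groups overlapped. Each mitochondria library was below the control library of the same number, but the labels do not state that the numbers pair the libraries. The log2 fold change was -0.26 ± 0.15 (SE; edgeR adjusted p = 0.503).

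Cbs (ENSMUSG00000024039), cystathionine beta-synthase, lies on the minus strand of chromosome 17 (31608894 to 31637238). It had 2.62, 2.72 and 1.56 CPM with mitochondria, against 2.27, 2.8 and 1.59 CPM in control. Replicate 3 was the lowest library of each group, and the ratio of the group means was 1.04. With no filter on low values, edgeR gave a log2 fold change of 0.05 ± 0.31 (SE) and an adjusted p of 0.982.

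Wider lists of the pathway, which contain the members, gave 0 calls by edgeR. Of 12 listed genes of sulfide oxidation and persulfide handling 10 were tested, and 5 were higher and 5 lower in the fit; their median log2 fold change was 0.018, against -0.0016 for all tested genes. The 3 with the smallest p were Selenbp1, Tst and Sqor, and DESeq2 called only the chosen Selenbp1 among the 10, against 2.79% of all tested genes. Of 28 genes of transsulfuration, the methionine cycle and cysteine use 21 were tested, where 12 were higher and 9 lower, the median was 0.018, and 0 were called by either tool; 3 of the 21 had an unadjusted edgeR p under 0.05, near the share of 13.0% over all tested genes, so their number is not a result about the list.

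The 3 were Slc3a2, Nfs1 and Mat2a. Slc3a2, the heavy chain of the cystine and amino acid transporters, had 133.7, 153.0 and 140.0 CPM with mitochondria, against 163, 165 and 168 CPM in control (log2 fold change -0.22 ± 0.058 (SE), edgeR adjusted p = 0.261). Mat2a, the enzyme that makes S-adenosylmethionine, had 255, 199.8 and 280.2 CPM with mitochondria, against 313, 307 and 300.1 CPM in control (-0.32 ± 0.12 (SE), edgeR adjusted p = 0.347). Nfs1, the cysteine desulfurase of iron-sulfur cluster assembly, was at 46.8 ± 2.04 CPM with mitochondria and 40.9 ± 1.98 CPM in control (SD, n = 3 each; edgeR adjusted p = 0.3). In each of these the groups did not overlap, Slc3a2 and Mat2a being lower and Nfs1 higher with mitochondria, and none passed. They were picked for their small p. Of the 21 tested, 3 were separated with mitochondria higher and 2 with mitochondria lower, against 10.8% and 10.6% of all tested genes. Nothing is read from the separation.

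**Figure D3:**
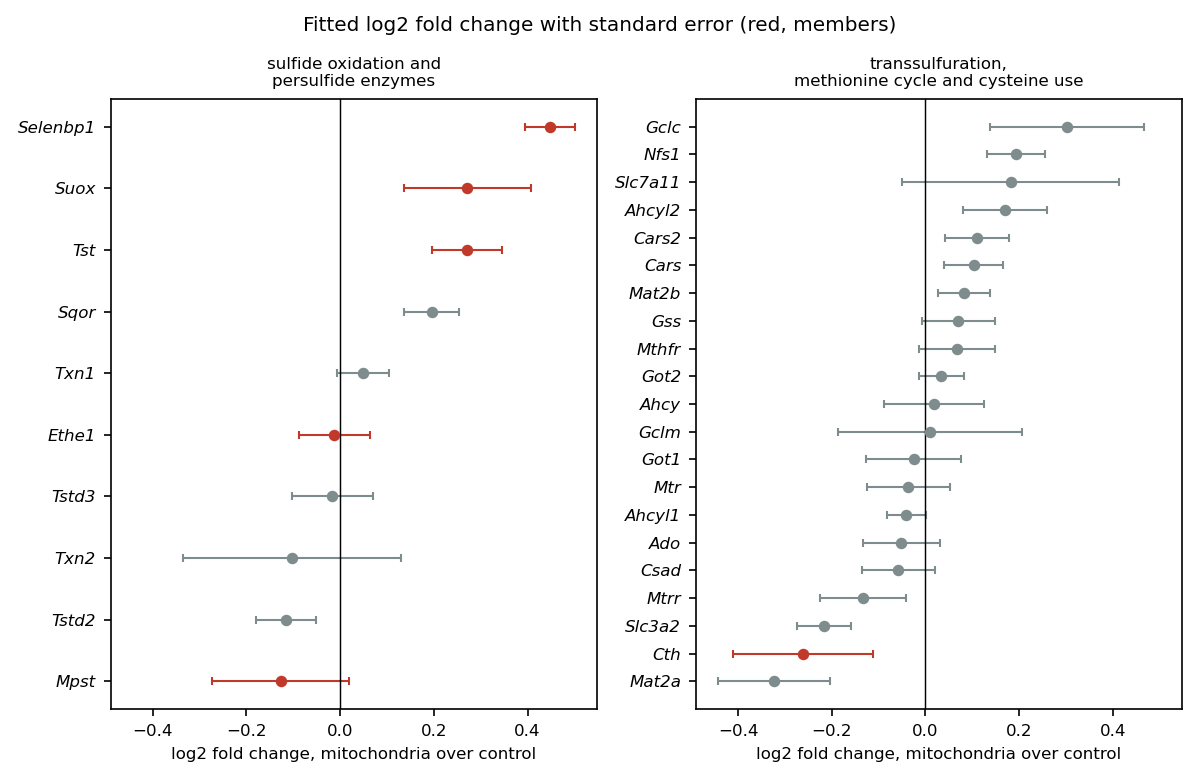
Log2 fold change, mitochondria over control, with its standard error for the 10 tested genes of sulfide oxidation and persulfide handling (left) and the 21 tested genes of transsulfuration, the methionine cycle and cysteine use (right); members are red. Selenbp1 has the highest value of both lists, at 0.45, and Mat2a the lowest, at -0.32, and none was called by edgeR.

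Suox needs the molybdenum cofactor, and of 10 listed genes of its synthesis and use 8 were tested. Of these, Suox included, 7 were higher and 1 lower in the fit, against 49.6% of all tested genes that were higher. Their median log2 fold change was 0.098, against -0.0016 for all tested genes. Some of the 7 were close to 0, such as Gphn at 0.039 ± 0.070 and Mocos at 0.038 ± 0.12 (SE). As 0 were called by edgeR or DESeq2, nothing is read from the count. The 3 with the smallest p were Aox1 (73.6 ± 5.39 CPM with mitochondria and 64.5 ± 2.81 in control), Mtarc2 (99.6 ± 11.6 CPM with mitochondria and 84.9 ± 3.21 in control) and Suox itself (SD, n = 3 each). Aox1 and Mtarc2 encode molybdenum enzymes, and their edgeR adjusted p-values were 0.341 and 0.362. Mocs1, which starts the synthesis of the cofactor, had the lowest value of the list at -0.29 ± 0.22 (SE).

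The pattern of Selenbp1 over the 6 libraries was compared with that of 10635 other tested protein-coding genes by the Pearson correlation of log2 CPM. The 5 most like it were Ttc12 (r = 0.997), Lrrfip2 (0.994), Atg101 (0.992), Tyro3 (0.992) and Cep170b (0.991), and 108 genes had an r above 0.95. Atg101 is a subunit of the complex that starts autophagy, and Tyro3 is a receptor kinase of the TAM family. The 6 points share their libraries and fall into the 2 groups, so a high r mainly says that a gene was also evenly higher in all 3 mitochondria libraries. Ttc12 had 21.8, 21.2 and 21.7 CPM with mitochondria, against 18.0, 16.6 and 16.9 CPM in control. None of the 5 was called by edgeR, with adjusted p-values of 0.187 to 0.251. DESeq2 called Ttc12, Lrrfip2, Atg101 and Tyro3, with adjusted p-values of 0.00129 to 0.027, and not Cep170b (0.0563), against 2.79% of all tested genes. The 5 were picked for their likeness to Selenbp1, itself chosen from this comparison, so nothing is read from these calls.

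**Figure D4:**
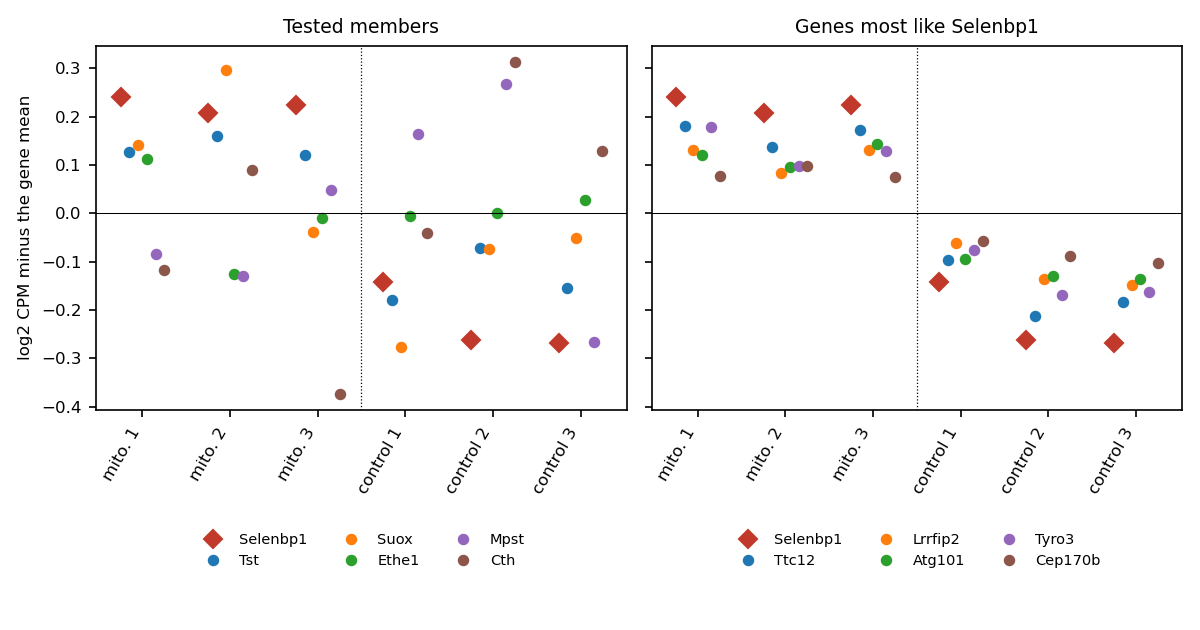
Log2 CPM minus the mean of the gene over the 6 libraries, for the 6 tested members (left) and for Selenbp1 with the 5 genes most like it (right), mitochondria libraries left of the dotted line and control libraries right of it. Selenbp1, Tst and Suox separate the groups, Ethe1, Mpst and Cth do not, and the 5 genes on the right are all above 0 with mitochondria and below 0 in control.

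Library totals were 65394770 to 73376834 counts. Transcripts of other tissues differed between libraries. The summed level of 33 pancreatic acinar markers was 57.6 to 63.1 CPM with mitochondria and 172.5 to 289.6 CPM in control. Of 18 tested, 11 were called lower, and Cela3a and Prss1 were at 0 throughout. Cela1 alone was at 53.7 to 59.3 CPM with mitochondria and 57.6 to 74.9 CPM in control. Nearly all of the acinar sum with mitochondria was thus this gene. The sum of 25 hepatocyte markers was 62.8 to 154.2 CPM with mitochondria and 128 to 143 CPM in control, with 0 of 13 tested called. Apoc1 alone was at 54.6, 87.2 and 53.2 CPM with mitochondria, against 57.8, 55.0 and 55.2 CPM in control. The overlap of the hepatocyte sums rests on Apoc1: without it each mitochondria sum lies below every control sum. Liver expresses many of the hepatocyte markers strongly, and Selenbp2 as well. Alb, the main hepatocyte transcript, was at 0.129, 19.0 and 12.7 CPM with mitochondria, against 15.4, 25.3 and 21.9 CPM in control. The library with the least Alb, mitochondria replicate 1, had the least Selenbp2, but the library with the most Selenbp2, mitochondria replicate 3, had less Alb than any control library. Mitochondria replicate 1 was also the highest for Selenbp1 and Ethe1. The part of these tissues in the members' values was not tested. Of 10 osteocyte markers of the donor line, Dmp1 and Mepe were at 0 in all libraries, and the sum was 294.1 to 355 CPM with mitochondria and 249.6 to 431 CPM in control. Most of it was Col1a1 (126.2 to 219.4 CPM over all libraries) and Gja1 (75.1 to 169.8 CPM). Sost, Phex, Pdpn and Bglap reached at most 0.612 CPM in any library. Fgf23, at 2.19 to 3.83 CPM over all libraries, and Runx2, at 35.2 to 44.9 CPM, passed the filter, and neither was called by edgeR. The sum of 14 endothelial markers, 4 of them tested and 0 called, was 2420 to 2528 CPM with mitochondria and 2049 to 2354 CPM in control. Most of it was Cd34, at 1302 to 1718 CPM over all libraries. The part of either list in the members' values was not tested.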

How the data were processed

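The series has 1 table of counts and FPKM for the 6 libraries. Per the submitters' processing notes the build was GRCm38 and the tools, with no roles given, were StringTie 2.1.6, HISAT2 2.2.1, Cutadapt 1.9, edgeR and DESeq2; libraries came from a stranded kit, per the labels' protocols. Read length, annotation release and strand setting are not given in the sources used here. Deposited FPKM values are normalized by transcript length and by library, per the file headers; genes with a count of 0 are listed at 0.0001 and taken as 0. Estimated counts were deposited as whole numbers. Multiples of 4 made up 36.6% of those between 1 and 20, where an even spread gives 25%. A fragment may therefore add about 4 counts, and depth in fragments may be lower than the totals, but other divisors were not examined.

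The main test was edgeR 4.0.16 (quasi-likelihood, TMM scaling, R 4.3.3) on the counts, without a covariate, for genes with a mean FPKM of at least 1, with Benjamini-Hochberg adjustment over all 12774. CPM are counts over the TMM-scaled sum of the tested genes. Standard errors derive from the F statistic. DESeq2 1.42.0, limma 3.58.1 on log2(FPKM + pseudocount), other scalings and filters, counts divided by 4, a replicate block and leaving out each library were alternatives. On simulated data for this comparison with 12774 genes, edgeR recovered 26 of 100 genes changed 1.5-fold and 62 of 100 changed 2-fold, with 7 false calls. Sequence windows were compared with all GENCODE M21 transcripts on both strands, and coding sequences were aligned with Biopython 1.88.

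The same replicate numbers occur in both groups. Each library's deviations from its group mean, in log2 CPM, were correlated across genes. The values were 0.155, 0.101 and 0.231 between same-numbered libraries and -0.216 to 0.0839 between others. Deviations in a group sum to 0 for each gene, so higher values for some pairs force lower ones for others. These weak correlations therefore do not establish a pairing, and the labels do not state one. Members and lists were chosen with earlier results of these data known. Genes named are the members, the 3 genes of each list with the smallest p, and the 5 most like Selenbp1; Mocs1, Zfp575 and the markers named were picked with their values known.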

Additional observations from a re-analysis of the deposited data

How the results depend on the processing

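Over all genes, 21 calls became 356 by DESeq2, 8 with a mean FPKM of at least 5, 6 without acinar and hepatocyte marker genes and 0 with the replicate block (2153 genes then had an unadjusted p under 0.05), and 1 to 27 when a library was left out, the fewest without control replicate 1, with 12 without control replicate 3. Among members, Selenbp1 alone was ever called: 1 member with DESeq2 (log2 fold change 0.45) and with limma at pseudocounts of 0.1 (0.46, adjusted p = 0.0474) and 0.5 (0.45, adjusted p = 0.0485). The summed Selenbp1 and Selenbp2 count was called only by DESeq2 (0.43, adjusted p = 5.03e-07). As Selenbp1 was chosen with its value known and makes up nearly all of the sum, these calls are not evidence of a difference. Over its 17 alternatives Selenbp1 stayed at log2 0.43 to 0.49, with adjusted p up to 0.186. Of the 6 tested members only Ethe1 changed direction: leaving out libraries moved it between -0.075 and 0.045, above 0 without mitochondria replicate 2. The untested ones also crossed 1 when a library was left out, the ratio of mean CPM of Selenbp2 lying between 0.33 and 1.21 and that of Cbs between 0.908 and 1.20. Suox, Tst, Mpst and Cth kept their direction and stayed uncalled. The cause of these changes was not tested. In simulated data of this size the test recovered 26 of 100 changes of 1.5-fold, larger than that of any tested member. Selenbp2 and Cbs rest on low counts, and may rest on fewer fragments still.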

Other observations

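Selenbp1 binds selenium but is not a selenoprotein, and genes of selenium use were listed beside it. Of 31 listed genes 26 were tested, 10 higher and 16 lower in the fit, where 49.6% of all tested genes were higher. Their median log2 fold change was -0.027, and edgeR called 0, 4 of them having an unadjusted p under 0.05, near the 13.0% of all tested genes. DESeq2 called 1 of the 26, near its share of 2.79% of all tested genes, so the call is not a result about the list. This was Selenot, a selenoprotein of the endoplasmic reticulum. It had 154.6, 144.9 and 145.8 CPM with mitochondria against 173.1, 169.7 and 172.9 CPM in control. Its log2 fold change was -0.21 ± 0.042 (SE), with a DESeq2 adjusted p of 0.00526 and an edgeR adjusted p of 0.215. The methionine sulfoxide reductase Msrb1 had 70.9, 68.7 and 73.1 CPM with mitochondria against 64.7, 56.1 and 58.3 CPM in control, and Gpx4, which reduces lipid peroxides, had 209.3, 209.1 and 213.7 CPM against 221.5, 229.9 and 223.6 CPM (edgeR adjusted p = 0.261 and 0.363). Gpx2, Selenov, Dio2 and Dio3 had a count of 0 in all 6 libraries.

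Among listed genes under the filter, chosen after their values were seen, the liver enzyme gene Mat1a had 0, 32 and 40 counts with mitochondria against 44, 65 and 53 in control, and the cysteine dioxygenase gene Cdo1 had 4, 69 and 26 against 54, 72 and 93. Mitochondria replicate 1, the library with the least Alb, was the lowest for both. Bhmt, also under the filter, had 0, 113 and 41 counts with mitochondria against 181, 19 and 103 in control. Its lowest control library, replicate 2, was the library with the most Alb. Gnmt had 42, 51 and 42 counts with mitochondria against 98, 54 and 53 in control, so mitochondria replicate 1 was not set apart there. Whether these counts come from the same source as Alb was not tested.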
